A study of Mus musculus with 2 samples.

Results

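The 9 fatty acid oxidation genes examined here were Cpt1a, Cpt2, Acadl, Acadm, Acadvl, Hadha, Hadhb, Scp2 and Etfdh. Their promoters were taken as the accessible regions that lay within 500 bp of a transcription start site of a protein-coding transcript and held a peak in both libraries. All 9 genes had such a region, among 15877 genes with a promoter in the data. Hadha and Hadhb start 86 bp apart on opposite strands and share 1 region, so the 9 genes have 8 distinct promoter sets, made of 11 of the 18975 promoter regions.

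Chromatin accessibility was profiled by single-cell ATAC-seq, which counts where the Tn5 transposase cuts open DNA in each cell, in embryonic mouse back skin (E16.5). The libraries, 1 per genotype, were labelled Control and MOFfl/fl/K14Cre (MOF cKO). In the latter, the Krt14 promoter drives Cre, and floxed Kat8, which encodes the histone H4 acetyltransferase MOF, is removed in epithelial cells, while the fibroblasts and immune cells of the same library are not targeted. Both libraries carried the K14-H2BGFP reporter, and sorted GFP-positive and GFP-negative cells had, per the labels, been recombined at 5 parts to 1 part, so shares of cell types were set by the sort. The text of the study gives lower ratios of GFP-positive to GFP-negative cells, which differ between its Results and Methods. The study describes a single pair of samples for this assay, and its controls as wild-type or heterozygous littermates. Which of these the Control library held, and how many embryos went into each library, were not given in the sources used here. With 1 library per genotype no difference between genotypes was tested, and all intervals below are 95% intervals that cover counting error only. At the Kat8 promoter, epithelial-like cells had 49.7 CPM in Control against 36.7 CPM in MOF cKO, but a promoter count does not measure the deletion of the gene. The log2 change there was -0.44, near the median of -0.40 over all promoters.

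Fatty acid oxidation breaks long acyl chains down inside mitochondria. The chain is activated to acyl-CoA, carried across the inner membrane as a carnitine ester, and shortened in rounds of dehydrogenation, hydration, a second oxidation and thiolysis, which yield acetyl-CoA and reduced electron carriers for the respiratory chain. In skin, fatty acids are fuel for mitochondria and also building blocks for the lipids of the epidermal barrier.

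Peaks of the Control library held 169641002 cut sites over 2541 barcodes, and those of MOF cKO 324310197 over 4348, with medians of 62973 and 66239.5 sites per barcode. Both libraries had 21 barcodes in common. Clusters were named from marker promoters, of which 8 of 11 epithelial markers and 7 of 10 fibroblast markers were at least 2-fold higher in their class. This gave 1594 Control and 2638 MOF cKO epithelial-like cells, and 658 and 1252 fibroblast-like cells. Nearly all epithelial-like cells of the genotypes fell in different clusters, namely 1, 5 and 8 in Control and 0, 3, 6 and 13 in MOF cKO. Fibroblast-like cells were unevenly spread too. Cluster 4 held 553 Control and 116 MOF cKO cells, cluster 2 held 103 and 623, and cluster 7 held 2 and 513. A cluster of 103 Control and 6 MOF cKO cells with markers of both classes was left unnamed. In epithelial-like cells, promoter regions held 37.7% of sites in Control and 28.7% in MOF cKO, whereas in fibroblast-like cells they held 41.9% and 40.9%. A lower CPM, that is fewer cut sites once each class was scaled to the same total over regions with a peak in both libraries, was therefore the usual value of a promoter in MOF cKO epithelial-like cells, and each gene below is read against all promoters. The summed CPM of the 11 epithelial marker promoters in epithelial-like cells was itself 322 in Control against 256 in MOF cKO. The part of these shifts in the value of any single gene was not tested.

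The promoter sequences of all 9 genes were found in the RefSeq promoter table (build GRCm38.p6), from 250 bases before to 50 after the start. They hold 50.7% (Acadvl) to 70.3% (Acadl) G and C, against a median of 60.3% over 12255 promoters of measured genes. Short cores of factors known to act at housekeeping and metabolic promoters were searched on both strands. The NRF1 core TGCGCATGC was present in Acadm and Etfdh and in 2.72% of all promoters, the SP core GGGCGG in 7 of the 9 genes (all but Acadm and Acadvl) and 61.5% of promoters, and the ETS core CCGGAAG in Cpt2 and 15.6%. The only SP match of Hadha is the same genomic site as a match of Hadhb, so these genes are not separate cases. The hexamer of nuclear receptors, AGGTCA, was in Cpt1a, Acadm, Acadvl and Scp2 and in 12.3% of promoters. No promoter of the 9 genes held 2 such hexamers 1 base apart (AGGTCANAGGTCA, up to 2 mismatches, in 2.95% of promoters), the arrangement bound by PPAR and RXR, or the ERR core TCAAGGTCA (0.253%), within these windows. The AP-1 core TGANTCA was in Acadvl (5.55% of promoters) and the CCAAT box in Cpt1a and Etfdh (37.9%). None held the CRE core TGACGTCA (3.06%), the YY1 core AAGATGGCG (2.67%) or the E-box CACGTG (9.73%). Matches within a promoter did not overlap each other, and a match is a string of letters, not a measured binding site. Bases before the RefSeq start that lie in no annotated exon are shown for the genes with the lowest changes (Cpt2, Acadm), those with the highest (Cpt1a, Acadl) and the shared start of Hadha and Hadhb, with the motifs named beside each in capitals, those on the opposite strand as their complement read backwards.
Cpt1a (plus strand, chr19:3323051-3323284; another annotated start lies further upstream in the same region; SP cores and AGGTCA on the opposite strand): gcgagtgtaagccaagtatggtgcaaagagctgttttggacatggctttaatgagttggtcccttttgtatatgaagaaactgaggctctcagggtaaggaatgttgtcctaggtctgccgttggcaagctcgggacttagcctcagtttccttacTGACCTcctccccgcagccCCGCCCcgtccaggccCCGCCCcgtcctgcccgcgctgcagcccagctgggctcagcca
Cpt2 (minus strand, chr4:107923611-107923839; ETS core on the opposite strand and SP cores): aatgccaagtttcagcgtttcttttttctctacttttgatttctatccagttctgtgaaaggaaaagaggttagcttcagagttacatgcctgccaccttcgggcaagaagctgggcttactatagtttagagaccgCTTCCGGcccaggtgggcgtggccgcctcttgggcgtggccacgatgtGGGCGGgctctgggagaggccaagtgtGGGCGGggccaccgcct
Acadm (minus strand, chr3:153944644-153944893; NRF1 core on the opposite strand): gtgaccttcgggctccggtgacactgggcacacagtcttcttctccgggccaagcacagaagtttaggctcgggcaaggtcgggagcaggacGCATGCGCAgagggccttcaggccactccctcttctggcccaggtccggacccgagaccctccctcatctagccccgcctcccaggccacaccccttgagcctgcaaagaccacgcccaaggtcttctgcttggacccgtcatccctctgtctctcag
Acadl (minus strand, chr1:66863310-66863559; SP cores on the opposite strand): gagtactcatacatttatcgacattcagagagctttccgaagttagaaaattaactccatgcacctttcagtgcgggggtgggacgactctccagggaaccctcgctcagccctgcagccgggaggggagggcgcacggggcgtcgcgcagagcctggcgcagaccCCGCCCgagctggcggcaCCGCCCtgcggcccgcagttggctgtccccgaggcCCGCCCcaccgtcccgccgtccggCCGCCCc
Hadha to Hadhb (plus strand, chr5:30155163-30155247, all bases between their starts; SP cores): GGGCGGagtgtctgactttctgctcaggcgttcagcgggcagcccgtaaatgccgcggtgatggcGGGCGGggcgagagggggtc

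In epithelial-like cells, 6 of the 8 promoter sets were lower and 2 were higher in MOF cKO than in Control. The carnitine shuttle genes had the highest and the lowest of the 8 changes. Cpt1a encodes the outer-membrane carnitine palmitoyltransferase, the rate-limiting step of entry, and its promoter regions summed to 33.4 CPM in Control (95% interval 31.8 to 35.0, 3278 sites) and 44.5 CPM in MOF cKO (43.3 to 45.8, 9191 sites). Its log2 change was 0.42 (0.34 to 0.50), above 93.2% of all promoters. With only the 5′ end of the gene counted, the change of Cpt1a was -0.30, above 67.1% of promoters, since its higher value lay in an internal region. Cpt2 encodes the inner-membrane enzyme that turns the carnitine ester back into acyl-CoA. Its promoter had 29.4 CPM in Control (95% interval 27.9 to 30.9, 2888 sites) and 19.4 CPM in MOF cKO (18.6 to 20.3, 4013 sites), a log2 change of -0.60 (-0.69 to -0.50), which was the lowest of the 8 and above only 16.3% of promoters. The intervals of the genotypes did not overlap for either gene.

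The acyl-CoA dehydrogenases take the first oxidation step at different chain lengths and did not share a direction. Acadm, the medium-chain enzyme, had 45.4 CPM in Control (95% interval 43.5 to 47.3, 4458 sites) and 30.9 CPM in MOF cKO (29.8 to 32.0, 6371 sites), a log2 change of -0.56 (-0.63 to -0.48). Acadl, the long-chain enzyme, had 8.95 CPM in Control (95% interval 8.14 to 9.83, 880 sites) and 10.3 CPM in MOF cKO (9.73 to 11.0, 2135 sites). Its log2 change of 0.21 (0.05 to 0.37) lay above 89.8% of promoters, and the intervals of the levels in both genotypes overlapped slightly. Its direction was not stable, since the change was -0.21 with a window of 1000 bp around the start, -0.048 with each region counted once per cell and -0.037 with distal sites as the total. Acadvl, the very-long-chain enzyme of the inner membrane, had 13.7 CPM in Control (95% interval 12.7 to 14.8, 1345 sites) and 12.6 CPM in MOF cKO (11.9 to 13.3, 2593 sites), and the interval of its log2 change, -0.12 (-0.26 to 0.01), included 0.

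Hadha and Hadhb encode the alpha and beta subunits of the trifunctional protein, which carries out hydration, the second oxidation and thiolysis. Their common region had 19.6 CPM in Control (95% interval 18.4 to 20.9, 1924 sites) and 15.4 CPM in MOF cKO (14.6 to 16.2, 3174 sites), and the counts cannot be divided between the genes. The log2 change was -0.35 (-0.46 to -0.23), above 59.7% of promoters, and it was 0.26 for Hadha when starts of every annotated transcript were counted. Scp2 encodes the peroxisomal thiolase SCPx and the sterol carrier protein 2, and its regions summed to 37.8 CPM in Control (95% interval 36.1 to 39.5, 3710 sites) and 26.6 CPM in MOF cKO (25.6 to 27.6, 5489 sites), a log2 change of -0.51 (-0.59 to -0.42), which was 0.32 with only the 5′ end of the gene counted. Etfdh encodes the oxidoreductase that passes electrons from the dehydrogenases to ubiquinone. Its promoter was the most accessible of the 8 per kb in both genotypes, with 70.0 CPM in Control (95% interval 67.7 to 72.4, 6883 sites) and 59.6 CPM in MOF cKO (58.1 to 61.1, 12300 sites), a log2 change of -0.23 (-0.29 to -0.17). That region also lies at the start of 4930579G24Rik, 216 bp away on the other strand.

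**Figure D1:**
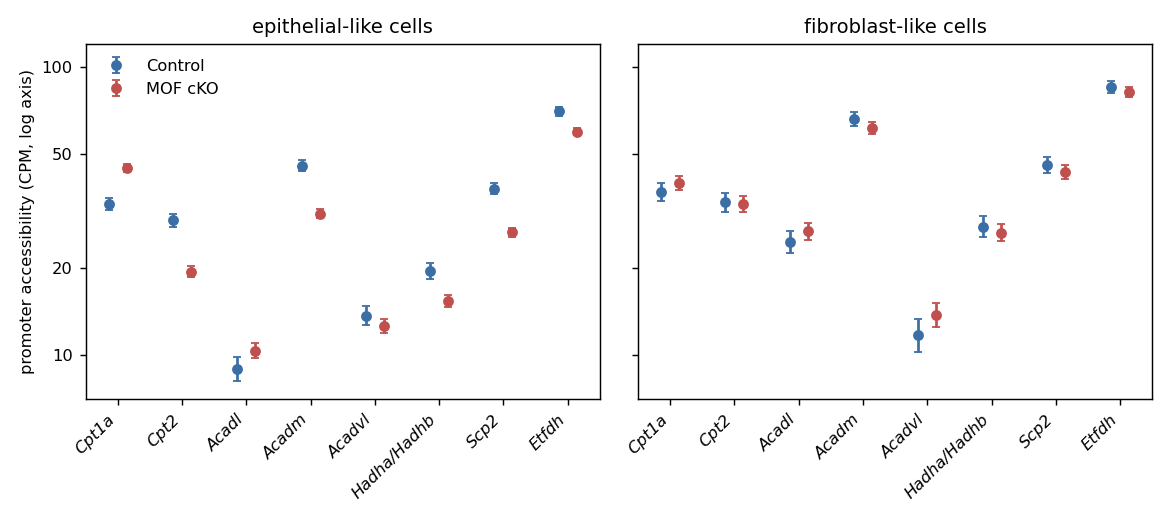
Promoter accessibility of the 8 promoter sets in CPM (log axis) in epithelial-like and fibroblast-like cells, Control in blue and MOF cKO in red, with 95% Poisson intervals of fragments from 1 library each. In epithelial-like cells Cpt2, Acadm, Hadha/Hadhb, Scp2 and Etfdh are lower and Cpt1a higher in MOF cKO with no overlap of intervals, while in fibroblast-like cells the intervals of every pair overlap.

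Read against all 15877 promoters, the set was near the middle rather than at the low end. The median promoter had a log2 change of -0.40 and 84.2% of promoters were lower in MOF cKO, whereas the median of the 8 sets was -0.29. Of the 8 sets, 4 (Cpt2, Acadm, Hadha/Hadhb and Scp2) were at least 20% lower, against 63.4% of all promoters, and 1 (Cpt1a) was at least 25% higher, against 8.26%. Relative to the median change, none was at least 20% lower, which 7.38% of promoters were, and 2 (Cpt1a and Acadl) were at least 25% higher, against 18.9%. Neither of the last calls held under every setting. Cpt1a was 0.11 above the median log2 change with only the 5′ end of the gene, and Acadl 0.19 above it with a window of 1000 bp and 0.31 with each region counted once per cell, all under 25% higher. Hadha was 0.66 above it with the starts of every annotated transcript, and Scp2 0.73 above it with only the 5′ end of the gene. Thinned to 5000 sites per cell, Cpt2 was at -0.41 from the median log2 change and so at least 20% lower, and Acadm at -0.011. The largest shortfall from the median change was -0.19 at Cpt2, followed by -0.15 at Acadm and -0.10 at Scp2. Hadha/Hadhb, Etfdh, Acadvl, Acadl and Cpt1a lay above it. The direction of the median of the 8 sets depended on scaling, as counts per cell without scaling to depth gave 0.053. That of all promoters stayed negative, at -0.06. With these counts Etfdh was at 0.11, Acadvl at 0.22 and Hadha/Hadhb at -0.0046.

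In fibroblast-like cells, which Cre does not target, the log2 changes of the 8 promoter sets lay between -0.10 (Acadm) and 0.24 (Acadvl), with a median of -0.04 against -0.03 over 15753 promoters. None was at least 20% lower (7.06% of all promoters were) or 25% higher (8.84%). Cpt2 had 33.8 CPM in Control (95% interval 31.3 to 36.5, 1343 sites) and 33.4 CPM in MOF cKO (31.4 to 35.5, 2076 sites), and its log2 change was -0.02 (-0.16 to 0.13). Acadm had 65.8 CPM in Control (95% interval 62.3 to 69.5, 2614 sites) and 61.3 CPM in MOF cKO (58.6 to 64.1, 3804 sites), a log2 change of -0.10 (-0.21 to -0.000705). Cpt1a had 36.9 CPM in Control (95% interval 34.2 to 39.6, 1463 sites) and 39.4 CPM in MOF cKO (37.2 to 41.7, 2447 sites), a log2 change of 0.10 (-0.04 to 0.23). Apart from Acadm and Acadvl, whose interval of the change was 0.00199 to 0.47, all intervals of the change included 0. Within cluster 2, Cpt2 was at 46.0 CPM (38.3 to 54.7) in Control and 36.4 (33.5 to 39.5) in MOF cKO. Within cluster 4 it was at 31.9 (29.3 to 34.7) and 29.8 (23.9 to 36.7). Acadm was at 60.3 and 60.7 CPM in cluster 2 and at 66.7 and 71.3 CPM in cluster 4. These intervals overlapped, and the part of the uneven cluster make-up in the class values was not tested. The change in epithelial-like minus that in fibroblast-like cells was -0.58 at Cpt2, -0.45 at Acadm, -0.42 at Scp2 and 0.32 at Cpt1a, with a median of -0.32 over the 8 sets and -0.38 over all promoters. With counts per cell and no scaling to depth both medians reversed, to 0.31 and 0.25. These differences were not tested.

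**Figure D2:**
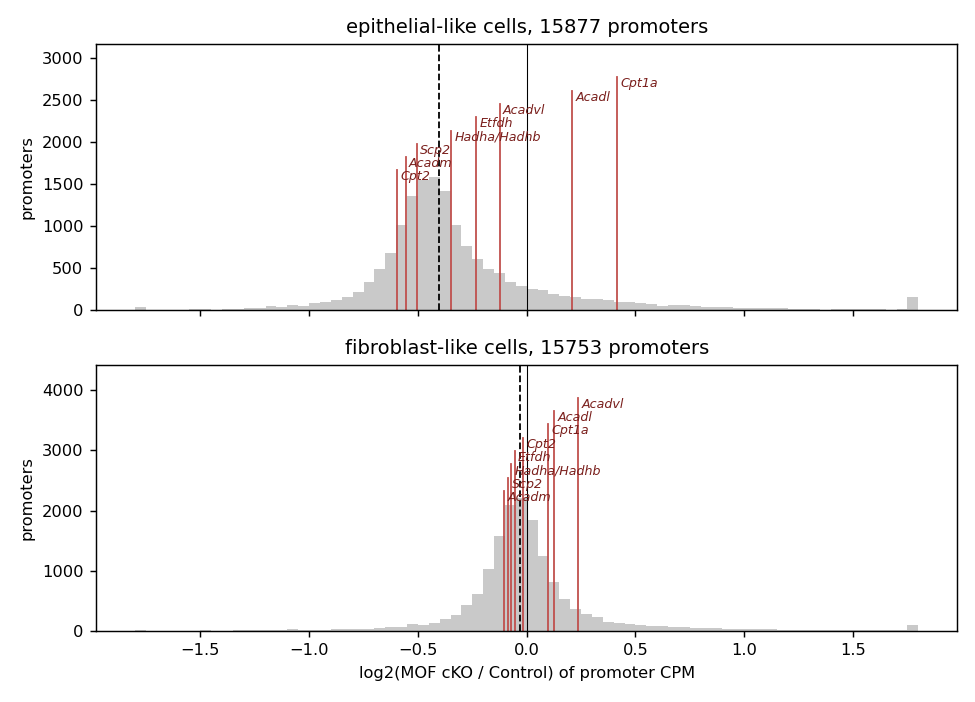
Number of promoters (vertical axis) by log2(MOF cKO / Control) of promoter CPM (horizontal axis, values beyond it drawn in the end bars) in epithelial-like and fibroblast-like cells, with the 8 promoter sets as red lines and the median of all promoters dashed. In epithelial-like cells the dashed line lies at -0.40, with Cpt2 at -0.60 and Cpt1a at 0.42. In fibroblast-like cells it lies at -0.03 and all red lines fall between -0.10 and 0.24.

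Levels of the genes were compared per kb of promoter region, since Cpt1a has 2 regions and Scp2 has 3. In Control epithelial-like cells the order ran from Etfdh (77.6 CPM per kb) through Acadm (50.8), Cpt2 (32.3), Hadha/Hadhb (21.3), Acadvl (16.0), Cpt1a (13.6) and Scp2 (13.3) to Acadl (9.75), and only the intervals of Cpt1a and Scp2 overlapped as neighbours. In MOF cKO epithelial-like cells Etfdh (66.0), Acadm (34.6) and Cpt2 (21.4) kept the first places, Cpt1a (18.1) stood above Hadha/Hadhb (16.7), and Scp2 (9.39) was last, with no overlap between neighbours. The places of Scp2 and Cpt1a were worked out with all their regions counted. For Scp2 these include an upstream region of 889 bp with 1.66 CPM in Control and 2.07 CPM in MOF cKO. For Cpt1a they include an internal region with 11.5 CPM in Control and 26.8 CPM in MOF cKO. The order without these regions was not worked out. In fibroblast-like cells Etfdh (94.2 in Control, 90.6 in MOF cKO), Acadm (73.7, 68.6) and Cpt2 (37.2, 36.8) again came first. The Acadl promoter was 26.8 CPM per kb in Control fibroblast-like against 9.75 in Control epithelial-like cells, the largest ratio between these classes among the 8 sets in Control, where the median promoter was at 26.1 against 22.8 CPM.

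Smaller classes are given as values. In immune-like cells, of which MOF cKO had 281 and Control 46, Acadl was at 36.8 (31.6 to 42.6) CPM in MOF cKO and 36.6 (25.5 to 50.9) in Control. Cpt1a in these cells was at 63.6 (56.7 to 71.2) and 56.5 (42.4 to 73.7), and Etfdh at 111 (102 to 121) and 116 (95.5 to 139.8). The intervals of the genotypes overlapped for all 3 genes. In the 69 mural-like cells of MOF cKO, Acadl was at 37.8 (29.0 to 48.4) CPM. In the 18 mural-like cells of Control it was at 37.4 (22.1 to 59.0) CPM. These levels were not compared with those in epithelial-like cells gene by gene, since the median promoter was itself at 29.2 CPM in the MOF cKO cells of immune-like cluster 9 and 29.7 CPM in those of mural-like cluster 11, against 17.0 to 18.0 CPM in the MOF cKO epithelial-like clusters 0, 3 and 6.

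The Cpt1a value joined regions that differed in opposite directions. The region at the main start, chr19:3322144-3323685, which overlaps non-coding exon sequence and holds 2 peaks in each library, had 21.8 CPM in Control (2147 sites) and 17.7 CPM in MOF cKO (3657 sites), a log2 change of -0.30 (-0.41 to -0.19). The region at an internal start, chr19:3333792-3334706, lies in the same gene, 67 bp past the start of a coding transcript that begins inside the gene. It had 11.5 CPM in Control (1131 sites) and 26.8 CPM in MOF cKO (5534 sites), a log2 change of 1.22 (1.09 to 1.35). The higher Cpt1a sum in MOF cKO thus came from the internal region, while the main promoter was lower, by less than the median promoter. In fibroblast-like cells the main region had 35.0 CPM in Control (1388 sites) and 34.7 CPM in MOF cKO (2154 sites), a log2 change of -0.01 (-0.15 to 0.13). The internal region there had 1.89 CPM in Control (75 sites) and 4.72 CPM in MOF cKO (293 sites), a log2 change of 1.32 (0.80 to 1.88). The summed level of the 11 epithelial marker promoters in fibroblast-like cells was 65.7 CPM in Control and 65.8 CPM in MOF cKO, with none at 0, and its part in that value was not tested. A single marker made up 29.9 CPM of that sum in Control and the highest marker 30.6 CPM in MOF cKO, while the lowest were at 0.25 and 0.24 CPM. The sum thus says little about a few CPM of epithelial signal. By cluster, the internal region was at 2.18 CPM in Control and 6.95 CPM in MOF cKO cells of fibroblast-like cluster 2, at 1.84 and 3.68 CPM in cluster 4, and at 1.97 CPM in the MOF cKO cells of cluster 7. The summed epithelial markers were at 65.4 and 72.3 CPM in cluster 2 and at 65.8 and 65.1 CPM in cluster 4. They were at 57.0 CPM in the MOF cKO cells of cluster 7.

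Scp2 had 3 regions, and the gene is known to make the long SCPx thiolase from its main start and the short sterol carrier protein from a start inside the gene. The region at the internal start, chr4:108070982-108072014, had 20.9 CPM in Control (2052 sites) and 13.6 CPM in MOF cKO (2797 sites), a log2 change of -0.62 (-0.74 to -0.51). The region at the main start, chr4:108118090-108118999, had 15.2 CPM in Control (1495 sites) and 11.0 CPM in MOF cKO (2264 sites), a log2 change of -0.47 (-0.61 to -0.34). In fibroblast-like cells their log2 changes were 0.07 (-0.09 to 0.24) and -0.27 (-0.45 to -0.09). The region at the most upstream start, chr4:108145327-108146215, lies outside annotated exons and introns and had 1.66 CPM in Control (163 sites) and 2.07 CPM in MOF cKO (428 sites), a log2 change of 0.32 (-0.05 to 0.71). The internal and the main region were thus lower in MOF cKO epithelial-like cells, and the main one was lower in fibroblast-like cells as well.

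The clusters within the epithelial-like class are given first for the genes below the median change. Cpt2 was at 31.3 and 27.2 CPM in the deeply covered Control clusters 1 and 5, and at 18.6, 19.1 and 21.5 CPM in the MOF cKO clusters 0, 3 and 6. Acadm was at 46.5 and 43.7 CPM against 30.5, 30.9 and 30.5 CPM. Scp2 was at 39.6 and 34.9 CPM against 24.2, 29.0 and 31.2 CPM. For these 3 genes every one of the MOF cKO clusters 0, 3 and 6 was below both Control clusters, with no overlap of intervals except for Scp2 between clusters 5 and 6. The median of all promoters was lower in the same way, at 22 and 23.8 CPM in Control clusters 1 and 5 and at 17.0, 17.4 and 18.0 CPM in MOF cKO clusters 0, 3 and 6. Relative to that median, Scp2 in MOF cKO clusters 3 and 6 and Cpt2 in MOF cKO cluster 6 were not below Control cluster 5. Control cluster 8 and MOF cKO cluster 13, with medians of 2460 and 20608 sites per cell, had wide intervals. Cpt2 was at 21.8 CPM (11.9 to 36.5) in cluster 8 and 29.9 CPM (19.4 to 44.2) in cluster 13. Acadm was at 54.4 and 46.1 CPM, and Scp2 at 50.6 and 13.2 CPM. Cpt2 and Acadm in cluster 13 were thus not below Control cluster 5, whereas Scp2 was.

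The clusters of Cpt1a and Acadl were less uniform. The main Cpt1a region was at 20.1 and 24.1 CPM in Control clusters 1 and 5 and at 18.0, 19.0 and 13.9 CPM in MOF cKO clusters 0, 3 and 6. The internal Cpt1a region was at 12.8 and 9.77 CPM against 26.5, 31.6 and 21.9 CPM, so it was higher in each of these MOF cKO clusters. The Acadl promoter was at 8.46 and 9.74 CPM against 11.3, 10.3 and 7.45 CPM. Only clusters 0 and 1 had intervals for Acadl that did not overlap between the genotypes, so its higher CPM in MOF cKO was not shown by every cluster. Relative to the median of all promoters in each cluster, Acadl was higher in MOF cKO clusters 0 and 3 than in both Control clusters. By the same measure cluster 6 was about level with cluster 5.

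**Figure D3:**
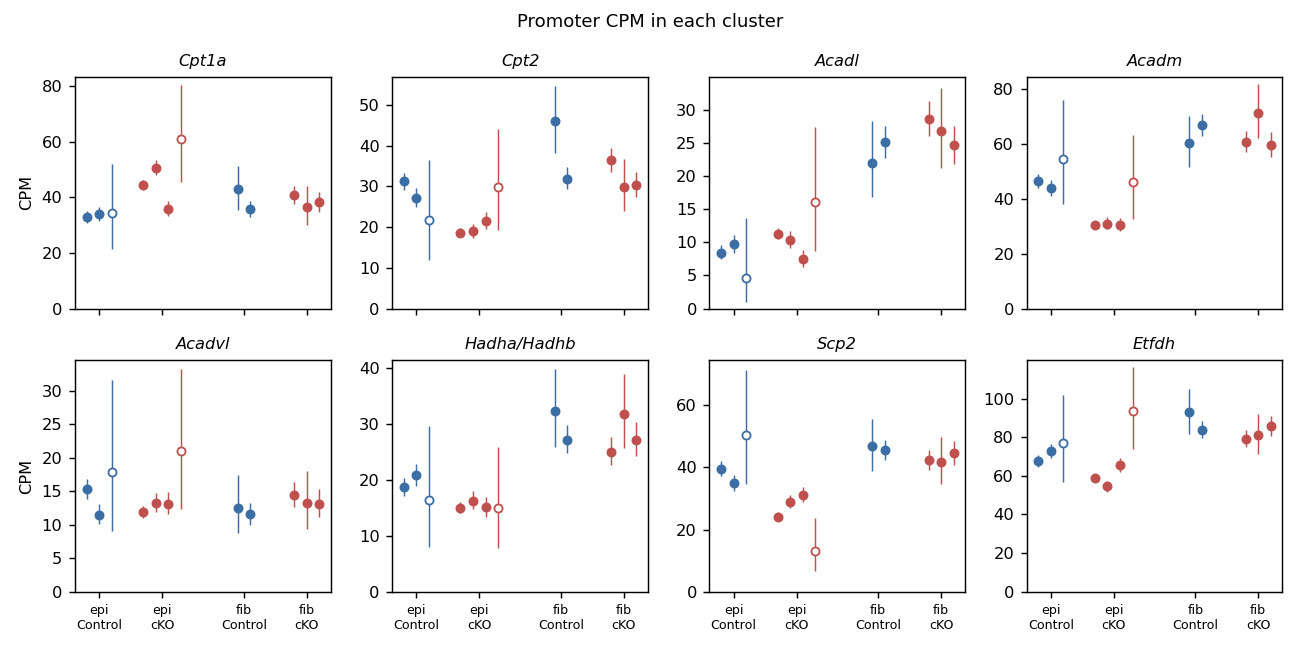
Promoter CPM of the 8 promoter sets in each cluster of epithelial-like (epi) and fibroblast-like (fib) cells with at least 50 cells of a genotype, Control in blue and MOF cKO in red, with 95% Poisson intervals of fragments and shallow clusters as open circles. The filled MOF cKO epithelial points of Cpt2, Acadm and Scp2 all lie below the filled Control points, while those of Acadl overlap with Control.

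The share of cells with at least 1 site was read only after each cell was thinned to 5000 sites, because MOF cKO epithelial-like cells were deeper (median 84469 against 61931 sites). Without thinning, Cpt2 was detected in 49.0% (46.5 to 51.5) of Control and 47.2% (45.3 to 49.1) of MOF cKO epithelial-like cells. With thinning, which left out 266 Control and 40 MOF cKO cells, the shares were 13.3% (11.5 to 15.3) and 7.97% (6.95 to 9.08). Acadm was detected in 17.9% (15.9 to 20.1) and 14.2% (12.9 to 15.6) of thinned cells, Scp2 in 15.9% (14 to 18.0) and 11.7% (10.5 to 13.0), and Etfdh in 28.6% (26.2 to 31.1) and 24.6% (22.9 to 26.3). Cpt1a was detected in 13.6% (11.8 to 15.6) and 18.8% (17.3 to 20.3). The shares were 3.92% (2.94 to 5.10) and 4.73% (3.95 to 5.62) for Acadl, 5.95% (4.74 to 7.36) and 5.08% (4.27 to 6.0) for Acadvl, and 9.11% (7.62 to 10.8) and 7.81% (6.81 to 8.91) for Hadha/Hadhb, with overlapping intervals. None of these shares was set against that of all promoters, and promoter regions as a whole held 37.7% of sites in Control and 28.7% in MOF cKO. In thinned cells the log2 changes of Acadm, Scp2 and Cpt2 were -0.011, -0.088 and -0.41 from the median of all promoters. That of Etfdh lay 0.18 above it.

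Regions away from the promoters, more than 2000 bp from any annotated start and within a gene or 10 kb of it, numbered 31, with log2 changes from -1.98 to 3.33. Their median log2 change in epithelial-like cells was 0.02, beside 0.05 over 165620 such regions of the genome. Of the 31, 4 were at least 2-fold lower (12.9%, against 9.28% of all) and 7 at least 2-fold higher (22.6%, against 21.0% of all). Acadl held 12 of them, Scp2 8, and Cpt2 and Acadvl none. Some overlap a neighbouring gene, namely those assigned to Hadha, the flanking one of Cpt1a and several of Scp2. Which gene such a region acts on was not tested.

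The most accessible was in an intron of Acadl (chr1:66845589-66846536), with 12.8 CPM in Control (1256 sites) and 35.8 CPM in MOF cKO (7391 sites), a log2 change of 1.49 (1.36 to 1.61). An intronic region of Scp2 (chr4:108110420-108111405) had 0.661 CPM in Control (65 sites) and 6.66 CPM in MOF cKO (1374 sites), a log2 change of 3.33 (2.82 to 3.89), and a region of Acadm (chr3:153932247-153933205) that overlaps a coding exon had 0.977 CPM in Control (96 sites) and 6.95 CPM in MOF cKO (1434 sites), a log2 change of 2.83 (2.41 to 3.28). Both were below 1 CPM in Control. An intronic region of Etfdh (chr3:79607601-79608543) was lower in MOF cKO, with 9.65 CPM in Control (948 sites) and 2.45 CPM in MOF cKO (506 sites), a log2 change of -1.98 (-2.20 to -1.75). In Control it was at 13.5 CPM in cluster 1 and 4.91 CPM in cluster 5, and in MOF cKO at 1.78, 0.782 and 6.58 CPM in clusters 0, 3 and 6, so that cluster 6 was not below cluster 5. These 4 regions were chosen after their values were seen. In fibroblast-like cells the Acadl region was higher in MOF cKO as well, with 20 and 103 sites and a log2 change of 1.72 (0.73 to 2.86). The Scp2 and Etfdh regions there had log2 changes of -0.28 (-1.88 to 1.38) and 0.60 (-1.21 to 2.74), from few sites. The Acadm region had only 12 sites in Control and 7 in MOF cKO there. The Acadm promoter was lower in MOF cKO while the named region inside the gene was higher, and the same held for Scp2 and its named intronic region. Other distal regions did not all go that way. Of the 8 of Scp2, 3 were lower, with a median log2 change of 0.32. Of the 12 of Acadl, 7 were lower, with a median of -0.62.

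Of the 7 distal regions at least 2-fold higher, 6 held an AP-1 motif, TGANTCA, the site of the FOS and JUN family of transcription factors. The motif was searched in the central 200 bases of each region and was present in 15891 of the 34815 distal regions of the genome that were at least 2-fold higher. It was present in 12 of the 31 distal regions of these genes (38.7%) and in 18.0% of 165639 distal regions of the genome. The 12 with the motif had a median log2 change of 1.06 and none was 2-fold lower, and the 19 without it had a median of -0.44 and 1 was at least 2-fold higher. The same split over the genome gave medians of 1.11 (53.4% at least 2-fold higher) and -0.09 (13.9%). The split in these genes thus had the same direction as over all distal regions. In fibroblast-like cells the genome medians were 0.43 with and -0.02 without the motif. Among the regions of these genes with a value in that class, they were 0.31 with and 0.11 without it. Of the 11 promoter regions, the internal Cpt1a region and the Acadvl promoter held it. Over all promoter regions, 5.60% held it, with a median log2 change of 0.28, against -0.40 for the rest. Whether a factor bound these letters was not measured. Of the other cores searched in the same windows, the TEAD core GGAATG was in 5 of the 31 regions (15.4% of all distal regions), AGGTCA in 3 (9.29%), and GGGCGG (5.85%), the RUNX core TGTGGTT (5.96%) and the C/EBP core TTGCNNAA (10.4%) in 2 each. The GRHL core ACCGGTT (0.473%) and CCGGAAG (1.07%) were in none. The central 200 bases of the internal Cpt1a region and of the higher Acadl, Scp2 and Acadm regions, read from RefSeq GRCm38.p6 in the direction of the gene, are shown because they are the higher regions named above, with the AP-1 motif in capitals, along with the C/EBP core in Cpt1a and an SP core in Acadm.
Cpt1a internal region (plus strand, chr19:3334149-3334348): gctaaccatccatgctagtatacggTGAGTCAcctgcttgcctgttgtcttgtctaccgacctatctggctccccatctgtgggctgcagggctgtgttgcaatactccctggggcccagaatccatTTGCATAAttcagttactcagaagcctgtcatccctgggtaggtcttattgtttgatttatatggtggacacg
Acadl intron (minus strand, chr1:66845963-66846162): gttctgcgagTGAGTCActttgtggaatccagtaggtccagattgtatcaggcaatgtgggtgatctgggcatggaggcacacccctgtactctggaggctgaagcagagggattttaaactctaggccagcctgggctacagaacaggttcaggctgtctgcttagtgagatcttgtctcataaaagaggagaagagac
Scp2 intron (minus strand, chr4:108110813-108111012): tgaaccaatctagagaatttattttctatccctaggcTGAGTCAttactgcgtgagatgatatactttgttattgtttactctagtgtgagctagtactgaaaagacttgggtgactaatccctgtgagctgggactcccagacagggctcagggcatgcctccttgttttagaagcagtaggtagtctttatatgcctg
Acadm intron (minus strand, chr3:153932626-153932825): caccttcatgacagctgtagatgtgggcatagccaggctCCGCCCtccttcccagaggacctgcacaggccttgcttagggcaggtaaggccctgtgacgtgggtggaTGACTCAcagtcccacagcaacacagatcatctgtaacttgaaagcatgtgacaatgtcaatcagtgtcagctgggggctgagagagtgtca

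**Figure D4:**
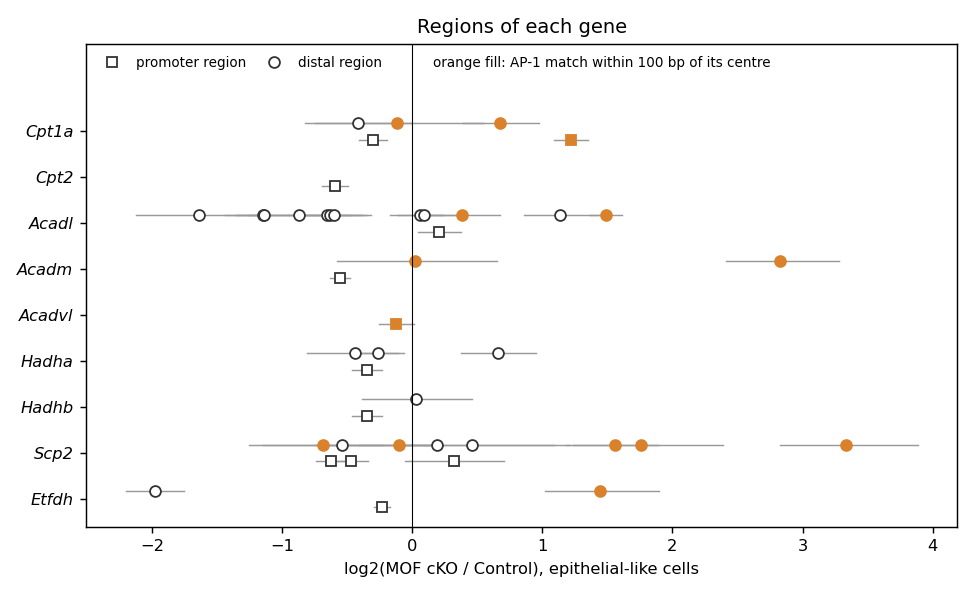
Log2(MOF cKO / Control) of each promoter region (squares) and distal region (circles) of the 9 genes in epithelial-like cells, with 95% intervals and an orange fill where TGANTCA occurs within 100 bp of the region's centre; the common region of Hadha and Hadhb is drawn in both rows. The internal Cpt1a region at 1.22 is the highest square, and 6 of the 7 circles above 1 are orange.

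Other genes listed in and around the pathway were mostly lower in MOF cKO epithelial-like cells, as were promoters in general. The list was broad and also held acyl-CoA dehydrogenases of amino acid breakdown and regulators that act in fatty acid synthesis. Of 71 listed genes 68 had a promoter value, and 60 of these were lower, where 84.2% of all promoters were. By at least 20%, 44 were lower, where 63.4% of all promoters were. Their median log2 change was -0.45 beside -0.40 for all promoters. Against the median change, 9 were at least 20% lower and 10 at least 25% higher, where the shares of all promoters were 7.38% and 18.9%. The counts by role are likewise read against 84.2% of all promoters lower. All 7 acyl-CoA synthetases were lower, with a median of -0.61, as were all 8 matrix enzymes of hydration, oxidation and thiolysis, with a median of -0.59. All 9 other acyl-CoA dehydrogenases and all 3 electron transfer genes were lower too, with medians of -0.48 and -0.47. Uptake and binding (7 of 9 lower, median -0.40), the rest of the carnitine shuttle (4 of 6, -0.32), peroxisomal oxidation (12 of 13, -0.32) and regulators (10 of 13, -0.38) had medians at or above that of all promoters.

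The lowest values among genes with at least 500 sites were at Acsf3, a mitochondrial acyl-CoA synthetase (7.16 and 3.32 CPM, log2 change -1.11), Ehhadh, the bifunctional enzyme of peroxisomal oxidation (22.7 and 11.4 CPM, log2 change -0.997), and Acad11, a dehydrogenase of long chains (26.3 and 13.3 CPM, log2 change -0.98). The highest were at Slc27a1, a fatty acid transporter (52.7 and 82.8 CPM, log2 change 0.65), Cpt1c, the neuronal relative of Cpt1a (10.1 and 13.5 CPM, log2 change 0.41), and Pparg, a nuclear receptor for fatty acid ligands (8.22 and 9.72 CPM, log2 change 0.24). In fibroblast-like cells 43 of the 68 were lower, where 58.3% of all promoters were, and 2 by at least 20%, where 7.06% were. Their median was -0.06, against -0.03 over all promoters. There the lowest were Acsf2 (20.6 and 13.5 CPM, log2 change -0.61), Acad11 (26.6 and 19.4 CPM, log2 change -0.46) and Acsl1 (64.4 and 52.0 CPM, log2 change -0.31), and the highest Slc27a1 (19.1 and 34.1 CPM, log2 change 0.84), Acsl5 (13.8 and 18.3 CPM, log2 change 0.41) and Pparg (14 and 17.7 CPM, log2 change 0.33). Slc27a1 and Pparg were thus higher and Acad11 lower in MOF cKO in both classes.

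**Figure D5:**
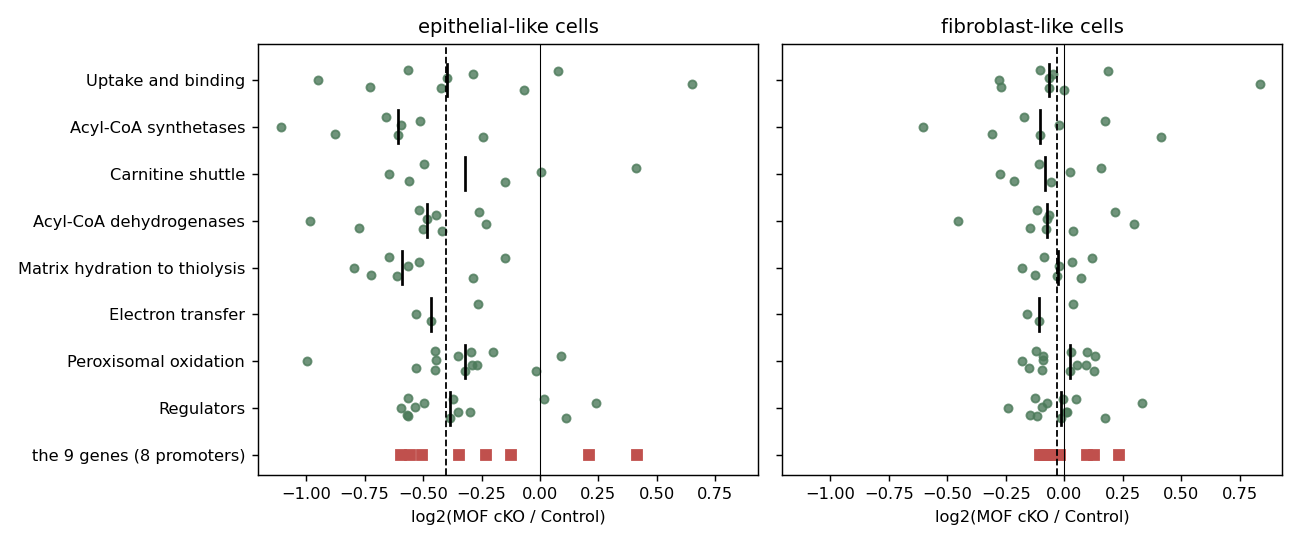
Log2(MOF cKO / Control) of promoter CPM for 68 other listed genes in and around fatty acid oxidation by role (green points, black bars are medians of a role) and for the 8 promoter sets of the 9 genes (red squares), with the median of all promoters dashed. In epithelial-like cells most points lie left of 0 around the dashed line at -0.40, and in fibroblast-like cells they lie around -0.03.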

How the data were processed

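Single-cell ATAC-seq was measured in 1 Control and 1 MOF cKO library. The authors aligned the reads with cellranger-atac 2.0.0 to mm10, called peaks in each library separately and deposited counts of Tn5 cut sites per peak and barcode, without molecular identifiers, so depth is the number of sites and intervals cover counting error only. Overlapping peaks of both libraries were merged, and 214119 of 369634 regions with a peak in both were used. Barcodes with under 1000 sites (60 in Control) were left out. Cells were clustered over 50000 regions (scikit-learn 1.9.0, leidenalg 0.10.2, resolution 1) and named from markers. Doublets were scored, and no cell was removed by its score. The unnamed cluster with markers of both classes (103 Control and 6 MOF cKO cells) had a median doublet score of 0.86. Its cells are in neither main class.

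Sites were summed per class and library and divided by the class total in shared regions (CPM). Log2 changes have exact conditional binomial intervals and levels exact Poisson intervals at 95%, on fragments taken as 2 sites. Promoters needed 20 sites. Starts were those of protein-coding transcripts in GENCODE M21, although every annotated transcript had been planned. The change was made after seeing the data, and the planned starts are given as an alternative. No test was made with 1 library per genotype. The 9 genes, the gene lists and the motifs were chosen with earlier results of these data known. All 9 genes, genes sharing their promoters and, per class, the 3 lowest and 3 highest of the other listed genes with at least 500 sites are named. Scripts were tested on simulated data.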

Additional observations from a re-analysis of the deposited data

How the results depend on the processing

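Of 68 repeats of the main values under 17 alternatives, 61 stayed within their error. Some of these could not differ. The choice of total leaves values relative to the median change as they were. The alternatives on shallow and mixed clusters leave the fibroblast-like values as they were. The members' median log2 change in epithelial-like cells was -0.44 with sites in all peaks as the total, -0.54 with sites in distal regions as the total, and reversed to 0.053 with sites per cell and no scaling to depth, while the median of all promoters went to -0.55, -0.65 and -0.06. With sites per cell the fibroblast-like median was -0.32 and the difference between classes reversed to 0.31 (all promoters 0.25), Etfdh was 0.11 and Acadvl 0.22 in epithelial-like and Acadvl -0.048 in fibroblast-like cells. Thinned to 5000 sites per cell, the fibroblast-like median was 0.094, the number of sets at least 20% below the median change was 1, Cpt2 (0 in the values reported), and Acadm in fibroblast-like cells was 0.045. Acadl in epithelial-like cells was -0.037 with the distal total, -0.21 with a window of 1000 bp and -0.048 when each region was counted once per cell, where Acadm in fibroblast-like cells was 0.093. With only the 5′ end of the gene record, Cpt1a was -0.30 and Scp2 0.32 in epithelial-like cells, because only 1 of their regions was then counted. With the starts of every annotated transcript, the wording first planned, Hadha was 0.26. The cause of the other shifts was not tested. The use of protein-coding starts in the reported values, and the alternatives without shallow clusters and with the mixed cluster as epithelial-like, were chosen after seeing the data. No paired analysis was possible because there was 1 library per genotype, without replicate numbers. Depth limits the smallest regions and clusters, and the spread between embryos cannot be seen.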
